A study of Mus musculus with 24 samples.

Results

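Atf3 knockout (KO) cells at day 6 of differentiation were set against wild-type (WT) cells at day 9, to see which gene programmes of the knockout already stood at, above or below the level of the later wild-type stage. Genes were taken for the comparison when they had an FPKM (fragments per kilobase of gene length, scaled by library) of 1 or more in at least 3 of the 6 libraries, which kept 12383 of the 53465 genes of the deposited table. Of the kept genes, 716 met the minimum in exactly 3 libraries, and 908 of the genes left out met it in 2. Tal1, at 3.10, 4.61 and 1.1 FPKM in KO day 6 and under 1 FPKM in all 3 WT day 9 libraries, lay just inside this limit. Gata1, at 2.39, 5.15 and 0.916 FPKM in KO day 6 and 0.352, 0.635 and 0.773 FPKM in WT day 9, lay just outside it and was not tested.

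The study followed mouse embryonic stem cells of both genotypes through differentiation, with RNA-seq of 3 libraries per genotype at days 0, 3, 6 and 9. Its title names mesodermal commitment and endothelial differentiation without Atf3 as the subject. The groups used here are KO cells at day 6, WT cells at day 9, KO cells at day 9 and WT cells at day 6, labelled Mes cells in all 4 cases. The stem cells were grown, per the labels' protocols, in serum medium with leukaemia inhibitory factor, the GSK3 inhibitor CHIR99021 and the MEK inhibitor PD0325901. The sources used here give neither the medium used for differentiation, nor the edited part of Atf3, nor the number of knockout clones. They also do not say if the 3 replicates were grown as separate cultures, so all p-values measure the spread of these libraries and that spread may be technical.

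Atf3 is a gene that cells switch on under stress, and its product is a bZIP factor related to ATF and CREB proteins. Differentiating embryonic stem cells pass through a stage with genes of the primitive streak, the site in the embryo where mesoderm and endoderm form, and then produce blood, endothelium, heart muscle, smooth muscle and connective tissue. Primitive red cells of the mouse yolk sac first make mainly the beta-like globin Hbb-bh1 and, as they mature, more of Hbb-y. Genes for collagens and contractile proteins of smooth and heart muscle come up later, as these tissues form.

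Genotype and day change together between KO day 6 and WT day 9 and cannot be told apart in this comparison alone. A second comparison, KO day 9 against WT day 6, was therefore read beside it. It shares no library with the first, turns genotype the same way and day the opposite way. In bulk RNA, fewer cells of a type and less RNA per cell cannot be told apart, in any of the results.

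Reads recovered from the FPKM values came to 12272777 to 17003246 per library in KO day 6, 13770911 to 25274374 in WT day 9, 15509779 to 20319198 in KO day 9 and 7855491 to 14634475 in WT day 6. Genes of rRNA type (3 genes) took 6.10% to 18.6% of the reads in KO day 6 and 4.42% to 14.9% in WT day 9. In the second comparison they took 4.92% to 11.5% in KO day 9 and 12.2% to 45.6% in WT day 6. The library at 45.6%, replicate 3 of WT day 6, held 4272061 reads outside these genes. Replicate 3 of KO day 6 stood apart from the other KO day 6 libraries: its summed FPKM of 8 globin genes was 174, against 2499 and 2823 in replicates 1 and 2, and its Atf3 level was the highest of the KO libraries used here. List counts given below that move by over 1.5 times when this library is left out are given both ways. Summed markers of red blood cells ranged from 163 to 2498 FPKM in KO day 6 and from 246 to 531 FPKM in WT day 9, those of smooth muscle from 196 to 328 FPKM in KO day 6 and from 687 to 1301 FPKM in WT day 9, and those of fibroblasts from 53.2 to 101 in KO day 6 and from 198 to 260 FPKM in WT day 9. Summed heart muscle markers ranged from 17.2 to 45.7 FPKM in KO day 6 and from 79.7 to 129 FPKM in WT day 9, and summed trophoblast markers from 2.78 to 9.86 FPKM in KO day 6 and from 36.5 to 71.9 FPKM in WT day 9. Endothelial markers summed to 8.34 to 13.7 FPKM in KO day 6 and 10.1 to 14 FPKM in WT day 9, and no marker of these cell types was at 0 in all 3 libraries of either group. The part of cell composition in the results below was not tested.

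Atf3 (ENSMUSG00000026628, mm10 chromosome 1 from 191170296 to 191218039, minus strand) measured 0.343, 0.578 and 4.17 FPKM in KO day 6, against 13.7, 15.1 and 16.1 FPKM in WT day 9. The groups did not overlap, and replicate 3 of KO day 6 was the highest knockout library. The log2 fold change was -2.84 (SE 0.40, n = 3 per group, adjusted p = 7.02e-05 by limma). An exact two-sided permutation test of the FPKM values gave p = 0.1, the smallest value possible with 3 against 3. In KO day 9, Atf3 measured 0.355, 0.714 and 0.532 FPKM, against 12.7, 24 and 10.9 FPKM in WT day 6.

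At the deposited scaling, most genes of KO day 6 stood at the level of WT day 9. Of the 12383 genes, 8874 (71.7%) were within 2-fold of it, in the sense that they did not pass the test and the 95% confidence interval of their fold change lay inside a factor of 2. The interval is of log2(FPKM + 1), which understates the fold changes of low genes and so brings more of them inside a factor of 2. With 0.1 added in place of 1 the number was 6685, and with voom on the recovered reads 6695. Under a rescaling to transcript shares of a fixed total (TPM) it was 3567, no longer most genes. Beside the 8874, 237 genes (1.91%) were higher and 594 (4.80%) lower in KO day 6 at an adjusted p of 0.05, and 2678 were unresolved. The shares of higher and lower genes are the background for the list counts below. The 6 values did not overlap between the groups for 1018 genes (8.22%) higher and 1289 genes (10.4%) lower in KO day 6. Of the tested genes, 247 were under 1 FPKM in every KO day 6 library and so passed the filter through WT day 9 alone, and 191 of the lower calls were among them. Likewise 54 genes passed through KO day 6 alone, and they held 27 of the higher calls. Such genes had to differ, and their calls add nothing to a count of direction. Higher genes made up 28.5% of the 831 calls, and 9.90% of the calls (50 higher, 455 lower) under TPM, or 14% (139 higher, 854 lower) with library sums made equal outside the rRNA-type genes. These rescalings moved the median log2 fold change of all genes to -0.28 and -0.16, against 0.04 as deposited. The spread of the 6 compared libraries alone, in place of that of all 8 groups, left 41 higher and 216 lower genes. The higher count depended on single libraries, with 502 genes without replicate 3 of KO day 6, 151 without its replicate 1 and 145 without replicate 2 of WT day 9.

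In the second comparison, at the deposited scaling, most of the called genes had the opposite sign. KO day 9 against WT day 6 had 1338 genes higher (10.8%) and 702 lower (5.67%) of the same 12383. These counts moved with the processing, to 6511 and 67 under TPM, which shifted the median of all genes to a log2 of 1.00, and to 2869 and 362 with equal library sums. Leaving out 1 library gave 711 to 2004 higher and 274 to 1651 lower genes. Of the 594 genes lower in KO day 6 than in WT day 9, 424 (71.4%) were higher in KO day 9 than in WT day 6, 120 were within 2-fold there (background 56.4%) and 6 were lower there too. Of the 237 genes higher in KO day 6, 142 (59.9%) were lower in KO day 9 than in WT day 6, 74 were within 2-fold and 1 was higher there too. Counted from the other side, of the 1338 genes higher in KO day 9 than in WT day 6, 424 (31.7%) were lower in KO day 6 than in WT day 9, while 663 (49.6%) were within 2-fold between KO day 6 and WT day 9. A gene that differed by day alone would have opposite signs in the 2 comparisons, and one that differed by genotype alone equal signs. With the spread of the compared libraries alone, 110 of 257 calls had the opposite sign, which is not most.

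**Figure D1:**
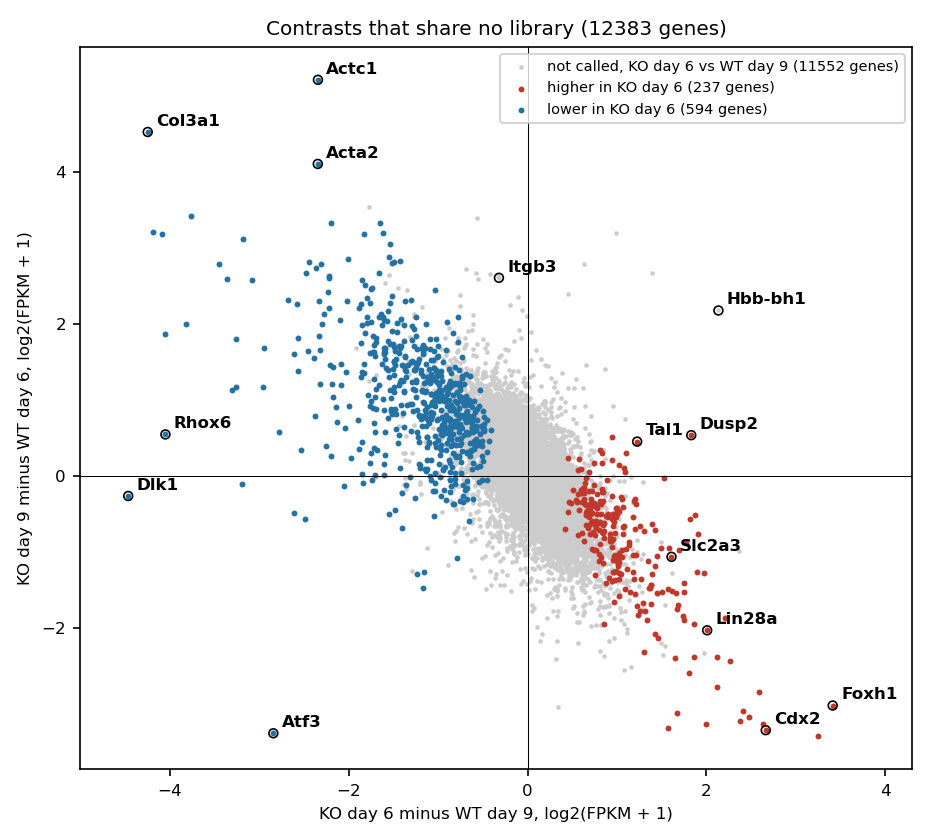
Log2 fold change of each of the 12383 genes in KO day 6 minus WT day 9 (x axis) and in KO day 9 minus WT day 6 (y axis), on the log2(FPKM + 1) scale; red and blue points are the 237 genes higher and the 594 genes lower in KO day 6. Most coloured points lie in the upper left and lower right corners, with Atf3 in the lower left, Dusp2 in the upper right and Dlk1 and Rhox6 near 0 on the y axis.

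The 7 genes with the same sign in both comparisons were 6 lower and 1 higher in the knockout, and all but Atf3 and Dusp2 are named here after their values were seen. Wnt6, a secreted Wnt ligand, had 0.590, 0.321 and 1.11 FPKM in KO day 6, against 2.00, 2.67 and 3.53 FPKM in WT day 9. It also had 0.349, 0.978 and 0.540 FPKM in KO day 9, against 2.61, 3.24 and 4.81 FPKM in WT day 6, so that KO and WT values did not overlap in either comparison (log2 -1.16 and -1.48). The homeobox gene Esx1 (log2 -1.23 and -1.29), the insulin-like growth factor binding protein gene Igfbp6 (-1.16 and -1.26), Nxf7 (-0.79 and -1.09) and Pdlim2 (-0.66 and -0.59) were the other lower ones. Dusp2, a phosphatase that acts on MAP kinases, had 5.71, 6.14 and 5.48 FPKM in KO day 6, against 0.515, 0.997 and 1.28 FPKM in WT day 9. Its KO day 6 values were the highest of the 4 groups (log2 1.83, SE 0.17, adjusted p = 3.99e-07). The difference was smaller in the second comparison, with 3.07, 3.32 and 2.12 FPKM in KO day 9 against 1.40, 1.66 and 1.83 FPKM in WT day 6 (log2 0.53, adjusted p = 0.0393).

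**Figure D2:**
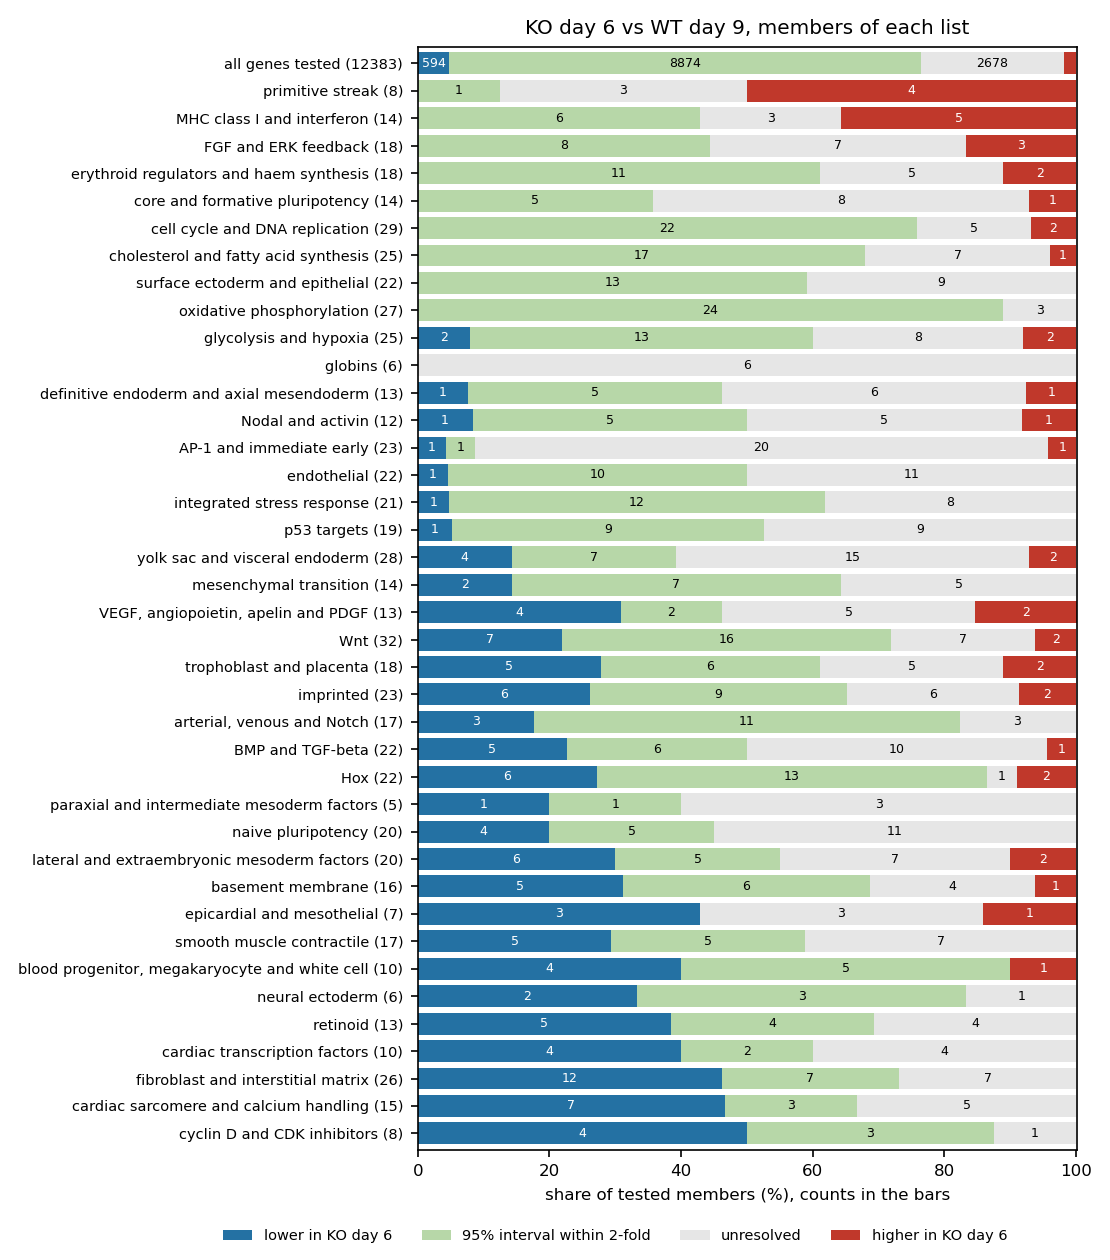
Share of the tested members of each gene list with 5 or more tested genes that was lower, within 2-fold, unresolved or higher in KO day 6 against WT day 9, with counts in the bars and the number tested in parentheses; the top bar is all 12383 genes. Higher calls fill 4 of 8 primitive streak genes, lower calls 12 of 26 matrix genes and 7 of 15 heart sarcomere genes, and oxidative phosphorylation has no call in 27.

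Part of the primitive streak genes stood above the WT day 9 level in KO day 6. Of 8 tested primitive streak genes, of 20 in the list, 4 were higher and none lower (background 1.91% and 4.80%). Values of 6 of the 8 were higher without overlap (background 8.22%). Among the 6 was Wnt3, named after its values were seen. It passed the filter through KO day 6 alone and had to differ, so it adds nothing to that count. The median log2 fold change over all 8, Wnt3 included, was 0.92, against 0.04 over all genes. The 4 were Foxh1, Cdx2, Evx1 and Aplnr, and the list held 2 higher genes under TPM or with the spread of the 6 libraries alone. In the list of core and formative pluripotency, 1 of 14 was higher, none was lower and the median was -0.01. In KO day 9 against WT day 6, 7 of the 8 primitive streak genes were lower (background 5.67%), and their median was -1.74.

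Foxh1, the DNA-binding partner of SMAD proteins in Nodal signalling (ENSMUSG00000033837, mm10 chromosome 15), had 62.8, 46.3 and 57.9 FPKM in KO day 6, against 3.13, 5.74 and 4.28 FPKM in WT day 9. It was the largest rise among the genes named by rule (log2 3.41, SE 0.24, adjusted p = 5.40e-09), and its WT day 6 values, 71.1, 55.4 and 110 FPKM, were as high. Cdx2, a homeobox factor of the posterior embryo and of trophoblast, had 50.5, 38.3 and 18.4 FPKM in KO day 6, against 2.92, 4.20 and 6.58 FPKM in WT day 9 (log2 2.66, SE 0.26, adjusted p = 7.70e-07). No KO day 6 library of either gene came near the WT day 9 range. Evx1, a homeobox gene of the posterior streak, had 5.62, 3.43 and 4.55 FPKM in KO day 6, against 1.08, 1.96 and 2.41 FPKM in WT day 9 (log2 0.98, adjusted p = 0.0226). Aplnr, the apelin receptor of early mesoderm, had 5.29, 3.16 and 2.08 FPKM in KO day 6, against 1.06, 1.78 and 1.36 FPKM in WT day 9 (log2 0.86, adjusted p = 0.0464). The Evx1 call was lost in 7 of 16 alternatives, among them those without replicate 1 of KO day 6 and without replicates 1 or 2 of WT day 9, with an adjusted p of up to 0.153. The Aplnr call was lost in 13 of 16, replicate 3 of KO day 6 being the only one of the 6 libraries that could be left out, with an adjusted p of up to 0.411.

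Lin28a, an RNA-binding protein of stem and progenitor cells that blocks let-7 maturation, had 130, 117 and 95.2 FPKM in KO day 6, against 23.7, 31.5 and 27.2 FPKM in WT day 9 (log2 2.01, SE 0.28, adjusted p = 4.61e-05). It was also lower in KO day 9 than in WT day 6 (log2 -2.03). Vrtn (log2 2.48), the protease gene Prss1 (2.64), the kinesin gene Kifc2 (2.41), the Nodal co-receptor gene Cfc1 (2.38) and the carbonic anhydrase gene Car4 (2.21) were higher in KO day 6 without overlap, and all 5 were lower in KO day 9 than in WT day 6. Sprr1a, a cornified envelope protein, had 20, 16.9 and 60.5 FPKM in KO day 6, against 5.26, 6.26 and 8.68 FPKM in WT day 9 (log2 1.91, adjusted p = 0.0142). Sprr1a did not pass the test between KO day 9 and WT day 6 (log2 -0.77, adjusted p = 0.256). The calls of Kifc2, Car4 and Cfc1 were lost with the spread of the 6 libraries alone, that of Cfc1 also without replicate 1 of KO day 6 (adjusted p up to 0.117). Sprr1a was lost in 8 of 17 alternatives, among them those without replicate 3 of KO day 6 and without replicates 1 or 2 of WT day 9 (adjusted p up to 0.317).

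The FGF list held 3 of 18 genes higher in KO day 6 and none lower. Fgf3, a ligand of the streak and of early mesoderm, had 20.5, 9.01 and 6.04 FPKM in KO day 6, against 1.21, 0.644 and 0.897 FPKM in WT day 9 (log2 2.59, SE 0.40, adjusted p = 0.000174). Fgf15, an endocrine-type FGF, had 8.48, 6.39 and 9.61 FPKM in KO day 6, against 2.14, 1.67 and 2.07 FPKM in WT day 9 (log2 1.62, adjusted p = 0.000111). The lowest KO day 6 library was well above the highest WT day 9 library in both. The receptor gene Fgfr4 was higher too (log2 1.02), a call lost under TPM and with the spread of the 6 libraries alone. The receptor Fgfr1 (15.7, 15.7 and 16.8 FPKM in KO day 6, 10.3, 13.2 and 10.7 FPKM in WT day 9) and the FGF-responsive factor Etv5 were among 8 of the 18 genes within 2-fold of WT day 9. Neither held without replicate 2 of WT day 9, Fgfr1 also not under TPM, and Etv5 also not without replicates 2 or 3 of KO day 6.

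Of 14 tested genes of MHC class I and the interferon response, 5 were higher in KO day 6 and none lower (background 1.91% and 4.80%). In KO day 9 against WT day 6, 9 of the 14 were lower (background 5.67%). The list held 3 higher genes under TPM and 1 with the spread of the 6 libraries alone. Ifitm1, an interferon-induced membrane protein also made by early embryonic mesoderm, had 122, 84.2 and 67.6 FPKM in KO day 6, against 12.8, 21.6 and 27.0 FPKM in WT day 9 (log2 2.12, SE 0.30, adjusted p = 7.02e-05). Its relative Ifitm3 had 176, 124 and 129 FPKM in KO day 6, against 40.8, 54.1 and 79.8 FPKM in WT day 9 (log2 1.32, adjusted p = 0.000386). Psmb8, a subunit of the immunoproteasome, had 9.24, 2.87 and 8.72 FPKM in KO day 6, against 0.377, 0.493 and 1.3 FPKM in WT day 9 (log2 2.12, adjusted p = 4.43e-05). H2-K1, a class I heavy chain, was higher in KO day 6 (log2 1.09) and so was the peptide transporter subunit Tap2 (log2 0.94, named after its values were seen). Tap2 passed the filter through KO day 6 alone, so its call adds nothing to the count. H2-D1, another class I heavy chain, was within 2-fold at 16.4, 16 and 19.7 FPKM in KO day 6 and 10.9, 14.3 and 19 FPKM in WT day 9. Reads of such near-identical chains may be split unevenly in counting. The calls of Ifitm3 and H2-K1 were lost under TPM and with the spread of the 6 libraries alone (adjusted p up to 0.329 and 0.493), and that of Psmb8 with that spread (0.0605).

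Many connective tissue genes stood below the WT day 9 level. Of 26 tested genes of fibroblasts and interstitial matrix, 12 were lower in KO day 6 and none higher, with a median log2 fold change of -0.74. In KO day 9 against WT day 6, 22 of the 26 were higher (background 10.8%). The count of lower genes in KO day 6 stayed at 12 without its replicate 3 and was 8 to 13 over the alternatives. Of the 12, 4 passed the filter through WT day 9 alone, Col14a1 among them. Col3a1, the chain of fibrillar collagen III (mm10 chromosome 1), had 3.34, 5.12 and 1.88 FPKM in KO day 6, against 88.7, 90.2 and 63.2 FPKM in WT day 9 (log2 -4.25, SE 0.35, adjusted p = 5.85e-08). The groups lay far apart, and WT day 6, at 2.60, 3.79 and 3.41 FPKM, was as low as KO day 6.

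The proteoglycan gene Lum had 0.641, 1.64 and 0.304 FPKM in KO day 6, against 24.6, 16.4 and 12.9 FPKM in WT day 9 (log2 -3.36, SE 0.53, adjusted p = 0.000201). Postn, an extracellular protein that binds collagen and integrins, had 1.53, 3.09 and 0.679 FPKM in KO day 6, against 35.0, 17.6 and 14.6 FPKM in WT day 9 (log2 -3.08, adjusted p = 0.000487). Col14a1, a collagen that associates with fibrils, had at most 0.118 FPKM in KO day 6, against 7.58, 6.31 and 4.21 FPKM in WT day 9 (log2 -2.67, adjusted p = 1.53e-08). All 3 genes were also low in WT day 6, with at most 1.64 FPKM. Other members were at the WT day 9 level. Vim, the intermediate filament protein of mesenchymal cells, had 111, 130 and 136 FPKM in KO day 6 and 118, 152 and 165 FPKM in WT day 9 (log2 -0.19, 95% interval inside a factor of 2). Fn1, fibronectin, had 110, 107 and 125 FPKM in KO day 6 and 164, 123 and 97.9 FPKM in WT day 9 (log2 -0.14). Both were higher in KO day 9 than in WT day 6 (log2 1.20 and 0.82).

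The growth factor Ptn, which binds heparin in the matrix, had 0.592, 0.805 and 0.434 FPKM in KO day 6, against 26.7, 32.0 and 26.0 FPKM in WT day 9 (log2 -4.18, SE 0.22, adjusted p = 1.32e-10). The small leucine-rich proteoglycan Nepn had 1.02, 1.35 and 0.149 FPKM in KO day 6, against 31.2, 25.8 and 28.1 FPKM in WT day 9 (log2 -4.06, SE 0.35, adjusted p = 9.52e-08). Neither gene overlapped between the groups, but Ptn passed the filter through WT day 9 alone and so had to differ. Of 16 tested basement membrane genes, 5 were lower and 1 higher in KO day 6. Lama1, a laminin chain of early embryonic basement membranes, had 5.39, 5.58 and 3.79 FPKM in KO day 6, against 40.4, 22.4 and 21.7 FPKM in WT day 9 (log2 -2.26, SE 0.32, adjusted p = 6.35e-05). Lama4, a laminin chain of vessel walls, was the one higher member, with 4.44, 4.51 and 3.21 FPKM in KO day 6, against 1.42, 1.17 and 0.998 FPKM in WT day 9 (log2 1.20, adjusted p = 3.26e-05), a call lost under TPM. Col4a1 (log2 -1.14), Col4a2 (-0.96), Col4a5 (-1.46) and the nidogen gene Nid2 (-0.75) made up the other lower ones, of which Col4a2 and Nid2 are named after their values were seen. Without replicate 3 of KO day 6, 2 members were higher. The list held 1 lower gene under TPM and 1 with the spread of the 6 libraries alone. The Col4a5 call was lost in 7 of 16 alternatives, among them those without replicates 1 or 2 of either group (adjusted p up to 0.216).

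**Figure D3:**
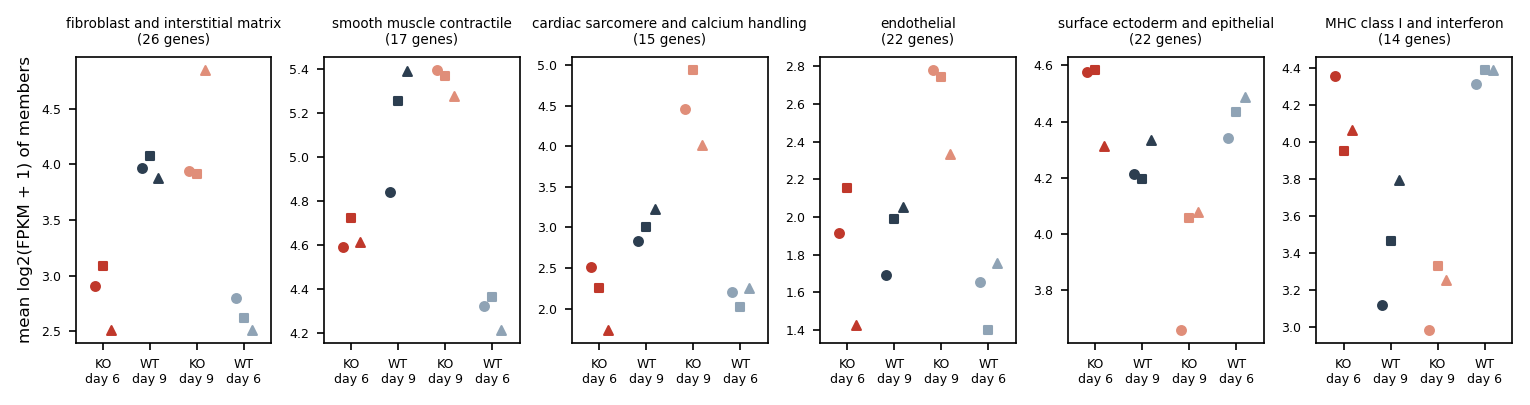
Mean log2(FPKM + 1) over the tested members of 6 gene lists in each library of KO day 6, WT day 9, KO day 9 and WT day 6 (circle, square and triangle: replicates 1, 2 and 3); the vertical axes differ and do not start at 0. In matrix, smooth muscle and heart sarcomere genes all KO day 6 libraries lie below all WT day 9 libraries, while in endothelial and epithelial genes they overlap.

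Part of the contractile genes of smooth muscle stood below the WT day 9 level in KO day 6. Of 17 tested genes, 5 were lower, none was higher and 5 were within 2-fold. Acta2, smooth muscle alpha-actin (ENSMUSG00000035783, mm10 chromosome 19), had 130, 217 and 99.5 FPKM in KO day 6, against 492, 823 and 925 FPKM in WT day 9 (log2 -2.35, SE 0.42, adjusted p = 0.000816). Its lowest WT day 9 library was above its highest KO day 6 library, and KO day 6 lay above the 59.3, 57.7 and 34.8 FPKM of WT day 6. Tagln, an actin-binding protein of smooth muscle, had 61.9, 106 and 125 FPKM in KO day 6, against 187, 309 and 364 FPKM in WT day 9 (log2 -1.55, SE 0.42, adjusted p = 0.0246). The myosin light chain Myl9 had 15.7, 17.2 and 10.8 FPKM in KO day 6, against 26.6, 47.9 and 63.7 FPKM in WT day 9 (log2 -1.53, adjusted p = 0.0042). The enteric actin Actg2 was lower as well (log2 -2.01), as was Lmod1 (log2 -0.86, named after its values were seen), which nucleates actin filaments. Lmod1 passed the filter through WT day 9 alone. All 5 were higher in KO day 9 than in WT day 6. Csrp1, at 175, 196 and 142 FPKM in KO day 6 and 137, 191 and 212 FPKM in WT day 9, and Cnn2, at 152, 187 and 139 FPKM in KO day 6 and 114, 178 and 205 FPKM in WT day 9, were within 2-fold. Both are actin-associated proteins found in many cell types. The Tagln call was lost under TPM, with the spread of the 6 libraries alone, and without replicate 1 of KO day 6 or replicates 2 or 3 of WT day 9 (adjusted p up to 0.157). That of Myl9 was lost with the spread of the 6 libraries alone.

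Serum response factor drives many of these muscle genes through the CArG box, which was searched by name in the 250 bases before each gene start. It was found in 1.47% of 32851 promoters. The promoters of 2 lower smooth muscle genes, Myl9 and Acta2, are shown. Tagln and Actg2 were looked up too but had no usable promoter sequence. The exact pattern is CC, a run of A or T, then GG. Exact matches are in capitals (sequences from RefSeq, build GRCm38.p6, written 5' to 3' on the gene's strand). The Myl9 window is chr2:156775214-156775463 on the plus strand and holds 1 match, beginning 161 bases before the start. The Acta2 window is chr19:34255374-34255623 on the minus strand and holds no exact match. It does hold near matches with a C or G inside the run of A or T, which the search did not count.
Myl9: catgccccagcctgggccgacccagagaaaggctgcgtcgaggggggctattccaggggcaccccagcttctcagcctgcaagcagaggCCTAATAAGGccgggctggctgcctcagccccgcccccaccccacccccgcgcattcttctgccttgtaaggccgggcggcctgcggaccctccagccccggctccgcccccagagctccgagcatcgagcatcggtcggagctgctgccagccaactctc
Acta2: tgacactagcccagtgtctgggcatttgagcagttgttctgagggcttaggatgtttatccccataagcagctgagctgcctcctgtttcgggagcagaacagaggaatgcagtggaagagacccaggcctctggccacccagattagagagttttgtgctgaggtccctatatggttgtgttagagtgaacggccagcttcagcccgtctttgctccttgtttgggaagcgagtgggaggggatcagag
A match is a description of these letters and says nothing of binding in these cells.

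Heart muscle genes were also in part lower. Of 15 tested genes of the sarcomere and calcium handling, 7 were lower in KO day 6, none was higher and 3 were within 2-fold, with a median log2 fold change of -0.71. In KO day 9 against WT day 6, 13 of the 15 were higher (background 10.8%). Actc1, cardiac alpha-actin, had 6.73, 5.25 and 10.3 FPKM in KO day 6, against 38.8, 39.7 and 43.3 FPKM in WT day 9 (log2 -2.34, SE 0.47, adjusted p = 0.00255). The natriuretic peptide genes Nppb and Nppa, made by stretched and embryonic heart muscle, had log2 fold changes of -2.22 and -1.89, with 0.591, 1.11 and 3.56 FPKM of Nppb in KO day 6, against 8.32, 10.9 and 13.0 FPKM in WT day 9. Neither Actc1 nor Nppb overlapped. Myl7, the atrial myosin light chain, had 30.5, 14.6 and 4.88 FPKM in KO day 6, against 32.9, 47.8 and 77.1 FPKM in WT day 9 (log2 -1.83, adjusted p = 0.0452), with its highest KO day 6 value next to its lowest WT day 9 value. The myosin heavy chain Myh7 had 4.33, 3.56 and 1.21 FPKM in KO day 6 and 3.85, 2.66 and 2.71 FPKM in WT day 9, and was within 2-fold. The calcium pump Atp2a2, which many cell types make, had 18.4, 21.1 and 49.1 FPKM in KO day 6 and 34.0, 27.6 and 19.6 FPKM in WT day 9 and was within 2-fold too. The Myl7 call was lost in 10 of 17 alternatives, among them those without replicates 2 or 3 of either group (adjusted p up to 0.289). The list held 3 lower genes with the spread of the 6 libraries alone, and 5 lower and 1 higher without replicate 3 of KO day 6. Of the 7 lower genes 2, Nppa among them, passed the filter through WT day 9 alone.

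Among 10 tested cardiac transcription factors and cofactors, 4 were lower in KO day 6 and none higher, and 1 was higher without replicate 3 of KO day 6. Isl1, a factor of second heart field progenitors, had 3.10, 2.57 and 1.10 FPKM in KO day 6, against 8.53, 7.01 and 6.17 FPKM in WT day 9 (log2 -1.38, SE 0.23, adjusted p = 0.000328). Popdc2, a membrane protein of heart muscle, had 1.49, 1.56 and 0.631 FPKM in KO day 6, against 3.36, 6.24 and 6.36 FPKM in WT day 9 (log2 -1.5, adjusted p = 7.34e-05). Both groups were separate in either gene. The ventricular factor Irx4 (log2 -1.0) and the homeodomain cofactor Hopx (log2 -0.86) were the other 2. Irx4 passed the filter through WT day 9 alone. Gata4, a GATA factor of heart and endoderm, was at the WT day 9 level, with 17.6, 19 and 8.38 FPKM in KO day 6 and 16.5, 17.1 and 15.6 FPKM in WT day 9. Isl1 and Popdc2 were lost with the spread of the 6 libraries alone, and Hopx in 11 of 16 alternatives, which included leaving out any of the 6 libraries (adjusted p up to 0.142).

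**Figure D4:**
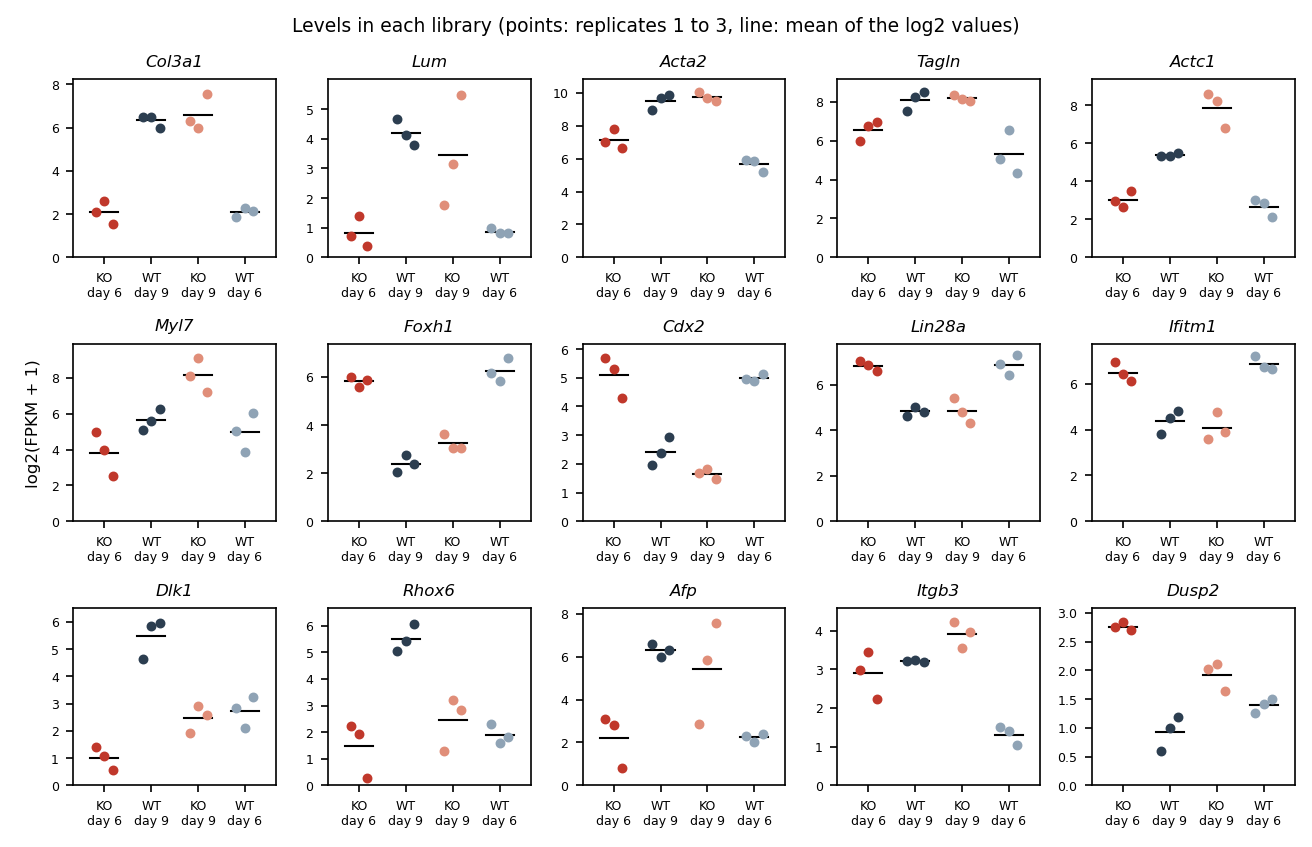
Level of 15 genes in each library as log2(FPKM + 1), in KO day 6, WT day 9, KO day 9 and WT day 6, with replicates 1 to 3 as points from left to right and a line at the mean of the log2 values. Matrix and muscle genes (Col3a1 to Myl7) have higher means at day 9 than at day 6 in both genotypes, Foxh1 to Ifitm1 have higher means at day 6 in both, Dlk1 and Rhox6 are high in WT day 9 alone, Itgb3 is low in WT day 6 alone, and Dusp2 is highest in KO day 6.

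Of 20 tested transcription factors of lateral mesoderm and its derivatives, 6 were lower, 2 higher, 5 within 2-fold and 7 unresolved in KO day 6. Tcf21, a factor of epicardium and visceral mesenchyme, had 1.14, 0.784 and 0.338 FPKM in KO day 6, against 7.47, 8.10 and 7.42 FPKM in WT day 9 (log2 -2.33, SE 0.23, adjusted p = 7.70e-07). Twist1, a factor of mesenchyme, had 7.88, 5.22 and 4.79 FPKM in KO day 6, against 21.8, 37.5 and 34.9 FPKM in WT day 9 (log2 -2.21, adjusted p = 4.28e-06). Tbx4, a factor of limb, allantois and lung mesenchyme, had 1.79, 1.64 and 1.55 FPKM in KO day 6, against 10.1, 12.7 and 10.7 FPKM in WT day 9 (log2 -2.19, adjusted p = 2.40e-06). No library of these genes crossed between the groups. Gata6, a factor of endoderm and heart mesoderm, was lower too (log2 -1.73), as were Isl1 and Prrx1. Prrx1 passed the filter through WT day 9 alone. The 2 higher ones, named after their values were seen, were Hand1 and Msx2. Hand1, a factor of extraembryonic and lateral mesoderm and of trophoblast giant cells, had 337, 304 and 196 FPKM in KO day 6, against 76.1, 117 and 125 FPKM in WT day 9 (log2 1.38, SE 0.25, adjusted p = 0.00092). Msx2, a homeobox target of BMP signalling, had 18.2, 20.2 and 22.9 FPKM in KO day 6, against 8.69, 10.7 and 9.91 FPKM in WT day 9 (log2 0.99). Neither Hand1 nor Msx2 was called under TPM or with the spread of the 6 libraries alone. Bmp4, the BMP ligand of early mesoderm, was within 2-fold at 32.3, 28.0 and 33.5 FPKM in KO day 6 and 18.8, 22.5 and 22.8 FPKM in WT day 9, although the 6 values did not overlap. It was not within 2-fold in 5 of 17 alternatives, among them those without replicate 2 of KO day 6 or replicates 2 or 3 of WT day 9.

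Hox genes mark position along the body axis. Of 22 tested, 13 (59.1%, against 71.7% of all genes) were within 2-fold. Lower calls numbered 6 (27.3%, background 4.80%) and higher calls 2 (9.09%, background 1.91%). The higher ones were Hoxb6 and Hoxb8, from the middle of the B cluster. Hoxb6 had 4.56, 3.20 and 3.16 FPKM in KO day 6, against 0.292, 0.941 and 0.685 FPKM in WT day 9 (log2 1.51, SE 0.15, adjusted p = 7.70e-07). The lower ones were Hoxa10, Hoxa11, Hoxa13, Hoxd8, Hoxd10 and Hoxd13, with Hoxa13 at 0.560, 1.07 and 0.361 FPKM in KO day 6, against 4.15, 5.09 and 3.92 FPKM in WT day 9 (log2 -1.71, adjusted p = 4.51e-07). Both genes were separate between the groups. Hoxb6 passed the filter through KO day 6 alone and Hoxd10 through WT day 9 alone. Their calls add nothing to a count of direction. Hoxd13 had a log2 fold change of -1.54 and Hoxa11 of -1.55, and all 6 lower Hox genes were higher in KO day 9 than in WT day 6. With the spread of the 6 libraries alone, 1 Hox gene was higher and 3 were lower. Hoxb8, Hoxa10, Hoxd8 and Hoxd10 are named after their values were seen. Hoxd9, at 12.1, 5.73 and 5.34 FPKM in KO day 6 and 3.00, 6.10 and 6.27 FPKM in WT day 9, was within 2-fold here but not in 10 of 17 alternatives, among them those without replicates 2 or 3 of either group.

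Among 32 tested Wnt pathway genes, 7 were lower and 2 higher in KO day 6, with 1 higher without replicate 3 of KO day 6. Sfrp1, a secreted Wnt antagonist, had 3.78, 1.25 and 1.68 FPKM in KO day 6, against 27.9, 32.0 and 28.0 FPKM in WT day 9 (log2 -3.30, SE 0.28, adjusted p = 8.01e-08). Here KO day 6 was also below WT day 6, which had 19.8, 13.1 and 17.7 FPKM. Wnt2, a ligand of heart and lung mesoderm and of yolk sac and placental vessels, had 1.43, 1.27 and 1.03 FPKM in KO day 6, against 9.05, 11.9 and 11 FPKM in WT day 9 (log2 -2.37, adjusted p = 9.52e-08). The receptor Fzd1 (log2 -1.86) and the antagonist Sfrp2 (log2 -1.59) were lower without overlap. The 2 higher ones, named after their values were seen, were the ligand Wnt5a (log2 1.09) and the TCF/LEF factor Tcf7 (log2 0.81), and neither was called under TPM, equal library sums or the spread of the 6 libraries alone.

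Retinoid genes were lower in 5 of 13 and higher in none, and lower in 3 and higher in 1 without replicate 3 of KO day 6. Of the 5, Rarb and Stra6 passed the filter through WT day 9 alone. Aldh1a2, the main retinoic acid synthesis enzyme of the embryo's mesoderm, had 2.12, 1.51 and 1.75 FPKM in KO day 6, against 4.95, 9.64 and 7.19 FPKM in WT day 9 (log2 -1.53, SE 0.21, adjusted p = 3.71e-05). Rdh10, which makes retinal from retinol, had 2.53, 5.08 and 6.87 FPKM in KO day 6, against 21.6, 14.9 and 10.6 FPKM in WT day 9 (log2 -1.54, adjusted p = 0.00529). The receptor gene Rarb, itself induced by retinoic acid, had 0.614, 0.638 and 0.217 FPKM in KO day 6, against 3.65, 3.04 and 2.27 FPKM in WT day 9 (log2 -1.42, adjusted p = 1.91e-06). None of the 3 genes overlapped. The uptake receptor Stra6 was lower as well (log2 -0.82, named after its values were seen). The receptors Rara and Rxra were within 2-fold, but not in 5 and 4 of 17 alternatives, which for both included leaving out replicate 1 of KO day 6. The call of Rdh10 was lost under TPM and with the spread of the 6 libraries alone (adjusted p up to 0.115).

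Globin genes other than Hbb-y stood above the WT day 9 level in 2 of the 3 KO day 6 libraries. Of 6 tested globin genes none passed the test, and none was shown to be within 2-fold. Hbb-bh1, an embryonic beta-like globin (ENSMUSG00000052217, mm10 chromosome 7 from 103841637 to 103843164, minus strand), had 1376, 1722 and 126 FPKM in KO day 6, against 103, 163 and 208 FPKM in WT day 9 (log2 2.13, SE 0.75, adjusted p = 0.104). Replicates 1 and 2 of KO day 6 were above every WT day 9 library, and replicate 3 lay inside the WT day 9 range. Hba-x, the embryonic alpha-like globin, had 599.6, 668.5 and 31.1 FPKM in KO day 6, against 61.1, 133 and 194.5 FPKM in WT day 9 (log2 0.99, adjusted p = 0.613). Without replicate 3 of KO day 6, 5 of the 6 globins were higher, Hbb-bh1 with a log2 fold change of 3.33 (adjusted p = 0.000922) and Hba-x with 2.43 (adjusted p = 0.0117). Hbb-y, the later embryonic beta-like globin, was the exception, with 71.8, 86.5 and 2.82 FPKM in KO day 6 and 78.1, 96.2 and 124.5 FPKM in WT day 9 (log2 -1.77, adjusted p = 0.239, and -0.31 with adjusted p = 0.704 without replicate 3). Replicate 3 was singled out by its low globin sum, so the fit without it gives no support for a globin difference. Without replicate 1 of KO day 6 instead, Hbb-bh1 had a log2 fold change of 1.62 (limma adjusted p = 0.371). Without replicate 2 it had 1.455 (limma adjusted p = 0.415). No globin was called in either of these fits.

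The balance of the embryonic beta-like globins differed between the groups in every library. The ratio of Hbb-bh1 to Hbb-y FPKM, chosen after the values were seen, was 19.2, 19.9 and 44.8 in KO day 6, against 1.32, 1.69 and 1.67 in WT day 9. All KO day 6 libraries were above all WT day 9 libraries, replicate 3 included. The ratio was 2.03, 3.05 and 1.04 in KO day 9, against 13.0, 6.71 and 2.11 in WT day 6. The ratio of Hba-x to Hba-a1, an alpha-like pair, was 1.59, 2.33 and 3.04 in KO day 6 and 1.48, 1.94 and 1.76 in WT day 9, with overlap. Globin genes are close relatives, and reads that fit more than 1 of them may be lost or split in counting.

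**Figure D5:**
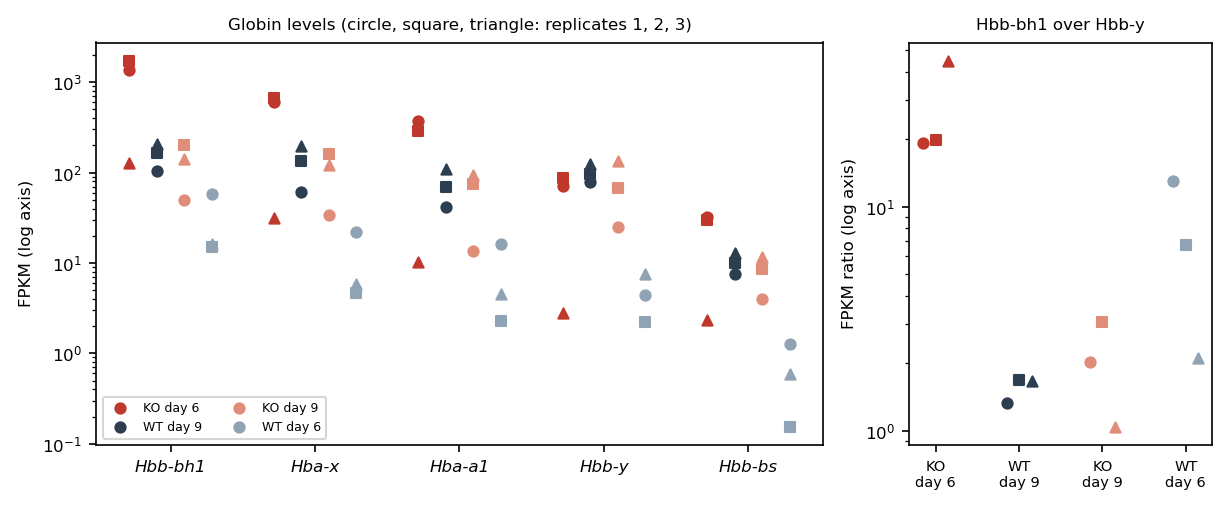
Left, FPKM of 5 globin genes in each library on a log axis, for KO day 6, WT day 9, KO day 9 and WT day 6 (circle, square and triangle: replicates 1, 2 and 3); right, the ratio of Hbb-bh1 to Hbb-y FPKM in the same libraries on a log axis. Replicate 3 of KO day 6 is far below its other 2 libraries in level, while all 3 KO day 6 ratios, 19.2 to 44.8, exceed the WT day 9 ratios, 1.32 to 1.69.

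GATA factors drive globin genes, and the promoters of the embryonic globins Hbb-y and Hba-x are shown. Hbb-bh1 was looked up too but had no usable promoter sequence. Neither Hbb-y nor Hba-x was called in KO day 6 against WT day 9, and no test compared the 2 genes. The GATA motif was searched on both strands, as the letters GATA with A or T before them and A or G after them, in the 250 bases before the gene start and was found in 26.5% of 32851 promoters. The Hbb-y window (RefSeq, GRCm38.p6, chr7:103853208-103853457, minus strand) holds 1 match, which begins 162 bases before the start. The Hba-x window (chr11:32276350-32276599, plus strand) holds 2, at 234 and 108 bases before the start. Matches are in capitals.
Hbb-y: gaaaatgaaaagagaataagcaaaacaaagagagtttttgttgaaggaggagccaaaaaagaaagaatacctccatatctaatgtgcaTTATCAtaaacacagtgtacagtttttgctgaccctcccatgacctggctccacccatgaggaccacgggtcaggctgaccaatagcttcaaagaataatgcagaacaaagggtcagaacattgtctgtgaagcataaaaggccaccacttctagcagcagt
Hba-x: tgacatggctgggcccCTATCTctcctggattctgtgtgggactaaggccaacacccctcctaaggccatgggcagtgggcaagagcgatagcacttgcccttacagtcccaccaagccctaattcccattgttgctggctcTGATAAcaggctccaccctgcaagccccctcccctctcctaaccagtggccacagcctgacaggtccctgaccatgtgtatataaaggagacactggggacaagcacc
The matches are a description of the sequence only.

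Among the 18 tested erythroid regulators and haem genes, 2 were higher and 11 (61.1%, against 71.7% of all genes) within 2-fold, and 4 were higher without replicate 3 of KO day 6. Tal1, a master regulator of blood formation, was higher at the FPKM values given above (log2 1.23, SE 0.23, adjusted p = 0.00135), a call lost with the spread of the 6 libraries alone. It passed the filter through KO day 6 alone, so this call gives no support to the list's direction. Sptb, erythroid beta-spectrin, had 3.86, 3.43 and 1.70 FPKM in KO day 6, against 1.35, 1.07 and 1.07 FPKM in WT day 9 (log2 0.84, adjusted p = 0.0362). It was lost in 9 of 16 alternatives, which included leaving out any 1 of the 6 libraries except replicate 3 of KO day 6 (adjusted p up to 0.294). The haem synthesis enzymes Alad and Urod were within 2-fold, but Alad not in 8 of 17 alternatives, which included leaving out any 1 of the 6 libraries, and Urod not in 6 of 17, which included leaving out replicates 2 or 3 of either group. Klf1, an erythroid factor left out by the filter, had 3.32, 5.74 and 0.551 FPKM in KO day 6 and 0.131, 0.359 and 0.352 FPKM in WT day 9, with all KO day 6 libraries above all WT day 9 libraries.

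Of 10 tested genes of blood progenitors, megakaryocytes and white cells, 4 were lower, 1 was higher and 5 were within 2-fold. Of the 4 lower ones 3, namely Pf4, Ppbp and Cd34, passed the filter through WT day 9 alone, so their number gives no support to a direction of the list. Pf4, a platelet chemokine, was listed at 0 in all 3 KO day 6 libraries, against 2.90, 4.29 and 5.23 FPKM in WT day 9 (adjusted p = 2.36e-06 by limma). Ppbp, another platelet chemokine, had 0.0852, 0.350 and 0.138 FPKM in KO day 6, against 3.78, 4.33 and 4.47 FPKM in WT day 9 (log2 -2.13, SE 0.12, adjusted p = 3.81e-10). The homeobox factor Meis1 had 1.17, 0.895 and 0.259 FPKM in KO day 6, against 4.09, 4.55 and 4.17 FPKM in WT day 9 (log2 -1.61, adjusted p = 2.61e-07), and the progenitor and endothelial surface protein Cd34 was lower as well (log2 -0.78, named after its values were seen). Itga2b, the platelet integrin alpha chain that early blood progenitors also carry, was higher, with 3.59, 4.32 and 1.56 FPKM in KO day 6, against 0.777, 1.05 and 1.41 FPKM in WT day 9 (log2 0.94, adjusted p = 0.00699). That call was lost under TPM, with the spread of the 6 libraries alone and without replicate 2 of KO day 6 (adjusted p up to 0.262). Its partner chain Itgb3 had 6.91, 9.94 and 3.73 FPKM in KO day 6 and 8.29, 8.47 and 8.06 FPKM in WT day 9 (log2 -0.32), within 2-fold here but not in 6 of 17 alternatives, among them that without replicate 2 of KO day 6. Itgb3 was much lower in WT day 6, at 1.83, 1.62 and 1.05 FPKM, and measured 17.6, 10.8 and 14.6 FPKM in KO day 9 (KO day 9 against WT day 6, log2 2.60).

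Endothelial genes in KO day 6 were for the most part not called. Of 22 tested, 10 (45.5%, against 71.7% of all genes) were within 2-fold, 1 was lower, none higher and 11 unresolved, against 21.6% of all genes, with a median log2 fold change of -0.06. Between KO day 9 and WT day 6, 13 of the 22 were higher and 1 was lower (background 10.8% and 5.67%). Cldn5, the tight junction protein of endothelium, was the lower one, with 0.392, 0.881 and 0.105 FPKM in KO day 6, against 1.92, 4.98 and 6.76 FPKM in WT day 9 (log2 -1.85, SE 0.31, adjusted p = 0.000455). Cldn5 passed the filter through WT day 9 alone, so its call gives no support to a direction of the list. The call was also lost with the spread of the 6 libraries alone. Ets1, an ETS factor of vessels, had 2.56, 3.25 and 11.3 FPKM in KO day 6 and 6.48, 4.88 and 3.52 FPKM in WT day 9, within 2-fold but not in 5 of 16 alternatives, among them those without replicates 1 or 3 of KO day 6. Without replicate 3 of KO day 6, 2 of the 22 genes were higher and the median was 0.23.

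Of 17 tested arterial, venous and Notch genes 11 were within 2-fold, among them the receptors Unc5b and Ephb4, with Ephb4 at 20.1, 20.2 and 9.44 FPKM in KO day 6 and 14.9, 20.5 and 18 FPKM in WT day 9. Nr2f2, the factor that sets venous identity and also marks mesenchyme, had 0.471, 0.408 and 0.207 FPKM in KO day 6, against 5.04, 5.03 and 3.57 FPKM in WT day 9 (log2 -2.02, SE 0.13, adjusted p = 1.46e-09). It passed the filter through WT day 9 alone, so its call adds nothing to a count of direction. The arterial ligand Efnb2 (log2 -1.14) and the chemokine Cxcl12 (log2 -1.04) were the other lower ones, and the list held 5 lower genes without replicate 3 of KO day 6. Both calls were lost in 7 of 17 alternatives, among them those without replicates 1 or 2 of either group (adjusted p up to 0.198 and 0.368). In the VEGF, angiopoietin, apelin and PDGF list, 4 of 13 were lower and 2 higher. Apela, a peptide ligand of Aplnr, had 42.9, 39.2 and 12.2 FPKM in KO day 6, against 6.5, 7.16 and 8.98 FPKM in WT day 9 (log2 1.75, SE 0.36, adjusted p = 0.00288), a call lost under TPM and with the spread of the 6 libraries alone. The receptor Aplnr was the other higher member, a call lost in 13 of 16 alternatives. No member was called higher under TPM or with the spread of the 6 libraries alone. Pdgfra, a receptor of mesenchymal cells, had 2.29, 2.2 and 1.27 FPKM in KO day 6, against 11.6, 6.35 and 4.60 FPKM in WT day 9 (log2 -1.48, adjusted p = 0.00015), while Pdgfrb, the receptor of pericytes and smooth muscle, was within 2-fold at 10.6, 10.1 and 6.71 FPKM in KO day 6 and 7.98, 11.2 and 8.98 FPKM in WT day 9. The ligand Pdgfc (log2 -1.42), the angiopoietin Angpt2 (log2 -1.05) and the lymphatic growth factor Vegfc (log2 -0.73, named after its values were seen) were the other lower ones. Angpt2 passed the filter through WT day 9 alone. The calls of Pdgfra and Pdgfc were lost with the spread of the 6 libraries alone (adjusted p 0.0965 and 0.133).

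Some genes were highest in WT day 9 and lower in each of the 3 other groups. Dlk1, an imprinted, Notch-like membrane protein of growing fetal tissues (ENSMUSG00000040856, mm10 chromosome 12), had 1.63, 1.12 and 0.482 FPKM in KO day 6, against 24.1, 56.7 and 60.7 FPKM in WT day 9 (log2 -4.47, SE 0.31, adjusted p = 4.58e-09). It was the strongest fall among the genes named by rule. In KO day 9 it had 2.82, 6.56 and 4.92 FPKM and in WT day 6 6.2, 3.33 and 8.51 FPKM, within 2-fold of each other. Cdkn1c, an imprinted inhibitor of cyclin-dependent kinases, had 1.72, 0.770 and 0.584 FPKM in KO day 6, against 7.96, 10.8 and 11.7 FPKM in WT day 9 (log2 -2.48, SE 0.25, adjusted p = 7.94e-07). Dio3, the imprinted enzyme that inactivates thyroid hormone, had 1.68, 1.17 and 2.03 FPKM in KO day 6, against 6.49, 7.70 and 8.36 FPKM in WT day 9 (log2 -1.70, adjusted p = 4.61e-05). Neither gene passed the test between KO day 9 and WT day 6. Dio3 had 1.42, 2.60 and 1.38 FPKM in KO day 9, against 0.909, 0.729 and 0.904 FPKM in WT day 6.

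In the imprinted list as a whole 6 of 23 tested genes were lower, 2 higher and 9 within 2-fold, with 4 lower without replicate 3 of KO day 6. Plagl1, an imprinted zinc finger factor, had 1.57, 2.2 and 3.50 FPKM in KO day 6, against 75.1, 42.8 and 26.8 FPKM in WT day 9 (log2 -3.76, SE 0.40, adjusted p = 1.68e-06). Unlike Dlk1, Plagl1 was high at day 9 in both genotypes, with 18.6, 30.4 and 71.5 FPKM in KO day 9, against 2.03, 2.09 and 2.93 FPKM in WT day 6. The 2 higher ones, named after their values were seen, were Phlda2, which restrains placental growth (log2 1.57), and Snrpn (log2 0.72), neither of them called under TPM or with the spread of the 6 libraries alone. Gnas, the G protein alpha subunit, was within 2-fold at 51.5, 68.0 and 53.9 FPKM in KO day 6 and 56.6, 87.0 and 83.7 FPKM in WT day 9.

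Trophoblast and placental genes included more genes of this kind. Of 18 tested, 5 were lower, 2 higher and 6 within 2-fold, and 8 were lower without replicate 3 of KO day 6. The X-linked homeobox gene Rhox6, made in placenta and germ cells, had 3.66, 2.79 and 0.197 FPKM in KO day 6, against 32.1, 41.8 and 66.5 FPKM in WT day 9 (log2 -4.05, SE 0.43, adjusted p = 1.79e-06). Rhox5 had 6.86, 6.25 and 4.21 FPKM in KO day 6, against 28.9, 49.5 and 62.8 FPKM in WT day 9 (log2 -2.78, adjusted p = 3.52e-05). Rhox9 had 0.816, 0.653 and 0.279 FPKM in KO day 6, against 5.65, 8.93 and 10.4 FPKM in WT day 9 (log2 -2.54, adjusted p = 7.70e-07). It passed the filter through WT day 9 alone. All 3 Rhox genes were separate between KO day 6 and WT day 9, and none passed the test between KO day 9 and WT day 6. Krt7 and Esx1 were the other lower ones, and Tead4 was higher beside Cdx2 (Krt7 and Tead4 are named after their values were seen). The Rhox genes are relatives in 1 cluster, so reads could be split between them.

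Yolk sac and visceral endoderm genes moved both ways. Of 28 tested, 4 were lower, 2 higher and 7 (25%) within 2-fold, and without replicate 3 of KO day 6, 9 were higher. Afp, alpha-fetoprotein, had 7.48, 5.98 and 0.737 FPKM in KO day 6, against 96.7, 62.6 and 79.8 FPKM in WT day 9 (log2 -4.08, SE 0.72, adjusted p = 0.000783). Spp2, a secreted phosphoprotein, had 1.12, 1.04 and 0.05 FPKM in KO day 6, against 6.64, 7.80 and 14.5 FPKM in WT day 9 (log2 -2.62, adjusted p = 0.000287). The groups were separate in both, with replicate 3 the lowest of KO day 6. The apolipoprotein gene Apoa2 (log2 -2.2) and the water channel gene Aqp8 (log2 -1.60) were also lower. Apoa2 passed the filter through WT day 9 alone. Spink1, a trypsin inhibitor, had 951, 814 and 130 FPKM in KO day 6, against 66.3, 113 and 208 FPKM in WT day 9 (log2 1.99, SE 0.55, adjusted p = 0.0279), so that replicate 3 of KO day 6 fell inside the WT day 9 range. That call was lost without replicates 1 or 2 of either group, and in 6 of 17 alternatives in all (adjusted p up to 0.416). Tdo2, which breaks down tryptophan, was the other higher gene, with 4.57, 6.2 and 3.89 FPKM in KO day 6, against 0.701, 0.476 and 0.295 FPKM in WT day 9 (log2 1.97), and like Aqp8 it is named after its values were seen. Tdo2 passed the filter through KO day 6 alone. Other secreted proteins at the bottom of the ranking were the trefoil factor Tff3 (log2 -3.82) and Gkn2 (log2 -3.26), both under 0.4 FPKM in every KO day 6 library and above 7 FPKM in every WT day 9 library. Tff3 and Gkn2 thus passed the filter through WT day 9 alone.

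Stem cell genes were not uniformly higher at the earlier day. Of 20 tested naive pluripotency genes, 4 were lower in KO day 6, none higher and 5 within 2-fold, with a median log2 fold change of -0.33. Without replicate 3 of KO day 6, 2 were higher and 3 lower. Dppa4, a chromatin protein of pluripotent and germ cells, had 1.26, 1.13 and 1.94 FPKM in KO day 6, against 4.48, 5.6 and 5.57 FPKM in WT day 9 (log2 -1.36, SE 0.31, adjusted p = 0.00762). Its partner Dppa2 (log2 -1.24), Dppa5a (log2 -1.85) and Fbxo15 (log2 -0.81) were the others. Fbxo15 passed the filter through WT day 9 alone. The Dppa2 call was lost without replicate 2 of WT day 9 (adjusted p 0.0646), and those of Dppa5a and Fbxo15 in 6 alternatives each, most of them with 1 library left out (adjusted p up to 0.140 and 0.135). In the germ cell list, 2 of 3 tested genes, of 15 in the list, were lower (background 4.80%), namely Stra8 (log2 -1.78) and Tex19.1 (log2 -1.73). Stra8 passed the filter through WT day 9 alone, so its call adds nothing to that count. The Tex19.1 call was lost in 5 of 16 alternatives, among them those without replicates 1 or 2 of KO day 6 or 2 or 3 of WT day 9 (adjusted p up to 0.120). Summed naive stem cell markers ranged from 8.13 to 17.0 FPKM in KO day 6 and from 16.9 to 23.4 FPKM in WT day 9.

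Oxidative phosphorylation genes were largely at the WT day 9 level. Of 27 oxidative phosphorylation genes, 24 (88.9%, against 71.7% of all genes) were within 2-fold and none was called. Atp5b, the ATP synthase beta subunit, had 258, 265 and 265 FPKM in KO day 6 and 196, 259 and 258 FPKM in WT day 9. Of 29 cell cycle and replication genes 22 (75.9%) were within 2-fold, near the share of all genes, and 2 were higher, Foxm1 (log2 0.81) and Mcm6 (log2 0.51), a mitotic transcription factor and a subunit of the replicative helicase. Without replicate 3 of KO day 6, 1 was higher and 1 lower. Mcm7, another helicase subunit, had 101, 69.8 and 62.8 FPKM in KO day 6 and 58.3, 64.7 and 73.4 FPKM in WT day 9. The Foxm1 and Mcm6 calls were lost under TPM and equal library sums and without replicate 3 of WT day 9, that of Mcm6 also without replicates 1 or 3 of KO day 6 or 1 of WT day 9 (adjusted p up to 0.779 and 0.940).

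Of 8 tested D-type cyclins and inhibitors of cyclin-dependent kinases, 4 were lower and none higher. Cdkn2a, the locus of p16 and p19ARF, had 9.06, 9.80 and 4.79 FPKM in KO day 6, against 20.6, 28.5 and 45.2 FPKM in WT day 9 (log2 -1.85, SE 0.31, adjusted p = 0.000446). Its neighbour Cdkn2b, which encodes p15, had 4.24, 6.76 and 8.62 FPKM in KO day 6, against 16.4, 18.3 and 19.3 FPKM in WT day 9 (log2 -1.37, adjusted p = 0.00226). Ccnd2, cyclin D2, had 5.36, 2.42 and 3.28 FPKM in KO day 6, against 19.8, 14.1 and 12.3 FPKM in WT day 9 (log2 -1.83, adjusted p = 0.000816). No value crossed between the groups in these 3 genes, and the fourth was Cdkn1c. Cdkn1a, the p21 inhibitor induced by p53, was within 2-fold, with 70.6, 69.9 and 111 FPKM in KO day 6 and 72.1, 81.3 and 84.0 FPKM in WT day 9. The calls of Cdkn2a and Cdkn2b were lost with the spread of the 6 libraries alone, and that of Cdkn2b under TPM.

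Of 25 tested genes of glycolysis and hypoxia, 2 were higher, 2 lower, 13 (52.0%, against 71.7% of all genes) within 2-fold and 8 unresolved, and without replicate 3 of KO day 6, 1 was higher and 4 were lower. Slc2a3, the transporter GLUT3, had 288, 340 and 434 FPKM in KO day 6, against 152, 106 and 91.3 FPKM in WT day 9 (log2 1.61, SE 0.37, adjusted p = 0.00883). Slc2a1, GLUT1, had 251, 352 and 322 FPKM in KO day 6, against 154, 160 and 138 FPKM in WT day 9 (log2 1.02, adjusted p = 0.0293). Every KO day 6 library was above every WT day 9 library in both. The prolyl hydroxylase of collagen P4ha2 (log2 -1.24) and the pyruvate dehydrogenase kinase Pdk1 (log2 -1.18) were lower. Gapdh, a glycolytic enzyme, had 819, 736 and 674 FPKM in KO day 6 and 606, 732 and 794 FPKM in WT day 9. Both transporter calls were lost under TPM, equal library sums and the spread of the 6 libraries alone, and that of Slc2a1 also without replicates 2 or 3 of KO day 6 or any 1 library of WT day 9 (adjusted p up to 0.522 for Slc2a3 and 0.799 for Slc2a1). That of P4ha2 was lost under TPM and without replicate 2 of WT day 9 (0.101), and that of Pdk1 with the spread of the 6 libraries alone (0.0813).

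Atf3 acts downstream of Atf4 in the integrated stress response. Of 21 tested genes of this response 12 (57.1%, against 71.7% of all genes) were within 2-fold, 8 unresolved and 1 lower, with 4 lower under equal library sums. Atf4 had 83.5, 92.1 and 160 FPKM in KO day 6 and 117, 156 and 142 FPKM in WT day 9, with overlap and within 2-fold, but not in 4 of 17 alternatives, among them that without replicate 3 of KO day 6. The amino acid synthesis enzyme Asns was within 2-fold as well, with 82.3, 56.9 and 78.4 FPKM in KO day 6 and 84.7, 83.5 and 78.7 FPKM in WT day 9. Mthfd2, a mitochondrial folate enzyme, was the lower one, with 16.6, 11.6 and 23.2 FPKM in KO day 6, against 30.1, 31.9 and 32.8 FPKM in WT day 9 (log2 -0.90, SE 0.20, adjusted p = 0.00756). It was lost under TPM, with the spread of the 6 libraries alone and without replicate 2 of KO day 6 (adjusted p up to 0.222). Of 23 tested AP-1 and immediate early genes only Dusp2 and Atf3 were called and 20 were unresolved, while Myc was within 2-fold, but not in 9 of 17 alternatives, among them those without replicates 1 or 2 of KO day 6 or 2 or 3 of WT day 9. Without replicate 3 of KO day 6, 2 of the 23 were lower.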

How the data were processed

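RNA of KO and WT cells was sequenced as poly(A)+ libraries, per the labels' protocols. The submitters' processing notes name the aligner HISAT2 2.2.1 with the build mm10, the counter featureCounts 2.0.1, the trimming tools Trimmomatic 0.39 and FastQC 0.11.9, and DESeq2 1.30.1 in R 4.1.0. The authors deposited 1 table of FPKM values per gene and library, in which depth and gene length are divided out. Whole reads came back from FPKM and GENCODE vM21 exon lengths for 95.5% to 96.9% of values of up to 50 reads, to within 0.05 of a read, and gave the depths.

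Values were analysed as log2(FPKM + 1), so fold changes of low genes are understated. All 8 groups of 24 libraries were fitted in limma 3.58.1 (R 4.3.3) with a trended variance, no covariate and Benjamini-Hochberg adjustment over all 12383 genes, at a threshold of 0.05. Tables, exact tests and plots were made in Python 3.11.15 with scipy 1.17.1, matplotlib 3.10.9, numpy 2.4.6 and pandas 2.3.3, and the fit was tested on simulated data. Named genes were Atf3; the 12 highest and 12 lowest called changes whose groups did not overlap and whose higher mean was 5 FPKM or more, passing over predicted, clone and small RNA genes; up to 4 called members of each list with the largest change (where under 2 members passed, the one with the highest level instead); and up to 2 of its most abundant members within 2-fold. Members and lists were chosen with earlier results of these data known. Alternatives were other scalings, pseudocounts and filters, voom on the recovered reads, the spread of the compared groups alone, a replicate block and leaving out libraries. A covariate for the rRNA-type read share of each library was chosen after seeing the data. Replicate numbers did not pair the libraries. 1 gene that the naming rule gives is not reported here.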

Additional observations from a re-analysis of the deposited data

How the results depend on the processing

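Genes higher in KO day 6 numbered 50 under TPM, 41 with the spread of the compared groups alone, 139 with equal library sums, 407 with the rRNA-type share as a covariate and 130 with the stricter filter. Lower genes numbered 216 with the compared groups alone, 1011 with no filter and 220 with the stricter filter. Genes within 2-fold numbered 3567 under TPM, 6685 with a pseudocount of 0.1, 6695 with voom, 25435 with no filter and 4914 with the stricter filter. For KO day 9 against WT day 6, higher genes numbered 6511 under TPM, 323 with the compared groups alone, 2869 with equal sums, 808 with the covariate and 640 with the stricter filter, and lower genes 67, 117, 362, 353 and 408 under the same settings. Genes of opposite sign numbered 110 with the compared groups alone and 240 with the stricter filter. Genes of equal sign numbered 4 under TPM, 1 with the compared groups alone, 4 with a pseudocount of 0.1, 11 with the covariate, 3 with the stricter filter and 2 with voom. Leaving out 1 library gave 145 to 502 higher, 402 to 669 lower and 7482 to 9071 genes within 2-fold, 711 to 2004 higher and 274 to 1651 lower in KO day 9 against WT day 6, 392 to 831 of opposite and 5 to 22 of equal sign, and an exact permutation p for Atf3 of 0.2, the smallest possible with 2 against 3. The exact permutation p for Atf3 was 0.1, against an adjusted p of 7.02e-05 by limma. With the replicate block 211 genes were higher and 559 lower, 759 of them among the 831 calls; same-numbered KO day 6 and WT day 9 libraries had deviations correlated at -0.777, 0.294 and -0.774, so the numbers do not pair them. None of the 831 calls of KO day 6 against WT day 9 was called with the other sign under an alternative run; signs of the calls of KO day 9 against WT day 6 were not compared. The cause of these changes was not tested.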
